A study of Mus musculus with 14 samples.

Results

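The niche factor genes described here are 10 genes of marrow stromal cells. Cxcl12, Kitl, Angpt1, Il7, Csf1, Il34, Tnfsf11 and Tnfrsf11b encode factors that act on blood and bone. Lepr and Pdgfra encode receptors that mark stromal cells. The 10 genes were taken by symbol out of the 55401 genes counted per library, and all 10 were among the 17671 genes with enough counts to test. The study asked what marrow fat contributes to bone and marrow when food is short, by deleting Pnpla2, which encodes the triglyceride lipase ATGL, in bone marrow adipocytes (BMAds). RNA came from marrow plugs of the distal tibia, a site rich in marrow fat, of male C57BL6/SJL mice aged 24 weeks, with 2 mice pooled per library. There were 4 libraries of BMAd-Pnpla2+/+ mice fed ad libitum (AL), 4 of BMAd-Pnpla2+/+ mice under 30% caloric restriction (CR) for 6 weeks with 1 meal each evening, 3 of BMAd-Pnpla2-/- AL mice and 3 of BMAd-Pnpla2-/- CR mice. All mice, controls included, carried Osterix-FLPo and the FLPo-activated Adipoq-Cre inserted in the Adipoq gene; controls lacked the floxed Pnpla2 alleles. Cre was thus active where Osterix-lineage cells express Adipoq, which covers BMAds and a small subset of stromal cells.

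Stromal cells around marrow sinusoids, marked by Lepr, Cxcl12 and Kitl and largely overlapping with cells that express Adipoq, hold blood stem and progenitor cells in place and feed them. Cxcl12 retains CXCR4-bearing cells, Kitl (stem cell factor) signals through Kit, and Il7 supports early B cells. Csf1 and Il34 share the receptor Csf1r on macrophages and osteoclast precursors, while Tnfsf11 (RANKL) drives osteoclast formation and Tnfrsf11b (osteoprotegerin) is its soluble decoy receptor.

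Kitl, Csf1 and Pdgfra rose under CR in BMAd-Pnpla2+/+ marrow, as described below, and their promoters are shown for reference. RefSeq promoter windows (GRCm38.p6, 250 bases before to 50 bases after the start) matched 6 of the 10 genes. Those of Kitl, Csf1 and Pdgfra are given 5′ to 3′ on the strand of its gene, with every match to a searched motif in capitals.
Kitl (chr10:100015571-100015870, plus strand): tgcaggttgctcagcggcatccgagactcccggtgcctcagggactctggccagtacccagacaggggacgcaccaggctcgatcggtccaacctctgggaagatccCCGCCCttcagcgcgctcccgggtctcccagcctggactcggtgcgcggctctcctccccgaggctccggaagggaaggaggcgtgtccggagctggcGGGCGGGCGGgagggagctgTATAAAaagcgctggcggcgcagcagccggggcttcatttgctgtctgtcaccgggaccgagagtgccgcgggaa
Csf1 (chr3:107760420-107760719, minus strand): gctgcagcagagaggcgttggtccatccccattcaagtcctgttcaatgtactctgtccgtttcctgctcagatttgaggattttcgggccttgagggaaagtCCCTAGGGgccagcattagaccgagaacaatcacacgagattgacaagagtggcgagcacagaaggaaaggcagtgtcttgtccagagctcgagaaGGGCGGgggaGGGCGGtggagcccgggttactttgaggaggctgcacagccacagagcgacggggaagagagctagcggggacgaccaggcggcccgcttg
Pdgfra (chr5:75152001-75152300, plus strand): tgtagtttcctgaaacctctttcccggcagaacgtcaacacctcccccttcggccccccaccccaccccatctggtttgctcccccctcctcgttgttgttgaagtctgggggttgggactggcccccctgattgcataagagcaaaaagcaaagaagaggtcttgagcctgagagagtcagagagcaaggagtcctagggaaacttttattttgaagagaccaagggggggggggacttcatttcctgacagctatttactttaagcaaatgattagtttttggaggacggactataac
The motifs, searched on both strands, were the TATA box TATAAA, the CCAAT box CCAAT, the GC box GGGCGG and the palindrome CCCNNGGG recognised by EBF factors, which are transcription factors of marrow stromal cells. Kitl held 1 TATAAA, 25 bases before its start, and 3 GC boxes, of which a pair overlap. Csf1 held 2 GC boxes and 1 CCCNNGGG, and Pdgfra held none of the 4 motifs. Of the windows not shown, that of Cxcl12 held 5 GC boxes, that of Tnfsf11 held 1 TATAAA and 1 CCAAT, and the 2 windows of Lepr held 1 CCAAT and 1 GC box. Over all 32851 promoter windows of this length, 13.6% held TATAAA, 37.4% CCAAT, 35.7% GGGCGG and 13.7% CCCNNGGG.

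Library depth was 18898324 to 21665553 unstranded gene counts per library. The 3 libraries of the BMAd-Pnpla2-/- CR group had no strand information (50.1 to 50.5% of stranded counts on the first strand) and the other 11 did (4.30 to 4.62%). Unstranded counts were therefore used throughout, and library type and the BMAd-Pnpla2-/- CR group cannot be told apart. For 8 of the 10 genes the unstranded count was 100 to 101% of the strand-specific one in those 11 libraries. It was 83.9% for Angpt1, whose exons overlap the antisense gene Gm17473, and 91.1% for Il34, which overlaps Gm15894 and Gm15895. Pnpla2 itself, which is also expressed by cells that kept it, stood at 301, 174, 199 and 190 CPM (read counts scaled to library size) in BMAd-Pnpla2+/+ AL libraries and at 804, 991, 1015 and 502 under CR. The BMAd-Pnpla2-/- libraries held 135, 170 and 131 CPM under AL and 177, 219 and 267 under CR. The paper detected a shortened transcript of the deleted allele in caudal vertebrae, and reads of such a transcript could be counted here too. On either diet, all BMAd-Pnpla2-/- libraries lay below all BMAd-Pnpla2+/+ ones, with log2 fold changes of -0.57 ± 0.25 (SE, edgeR quasi-likelihood adjusted p = 0.9996) under AL and -1.90 ± 0.26 (adjusted p = 0.0386) under CR.

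Per length, Cxcl12 was far above the other genes in every group. Its mean was 551 ± 58.3 RPKM (SD, n = 4) in BMAd-Pnpla2+/+ AL and 763 ± 217 (n = 4) in BMAd-Pnpla2+/+ CR, which ranked it 53rd and 37th of all tested genes, and 580 ± 161 and 667 ± 125 (n = 3 each) in BMAd-Pnpla2-/- AL and CR. On average it took 0.444% of all gene counts in the BMAd-Pnpla2+/+ AL libraries and 0.637% under CR. Lepr came next in all 4 groups (26.3 ± 2.99 RPKM in BMAd-Pnpla2+/+ AL). Csf1, Il34 and Kitl followed at 16.6 ± 1.87, 16.5 ± 3.83 and 13.95 ± 1.02 RPKM in that group, and these neighbours overlapped between libraries. Angpt1 (8.54 ± 2.79), Pdgfra (4.10 ± 0.411), Il7 (1.16 ± 0.133) and Tnfsf11 (1.15 ± 0.224) came below, with Il7 and Tnfsf11 overlapping. Tnfrsf11b was lowest in every group at 0.145 ± 0.107 RPKM in BMAd-Pnpla2+/+ AL, where it rested on 3 to 16 counts per library. The order was the same under CR in BMAd-Pnpla2+/+ mice.

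**Figure D1:**
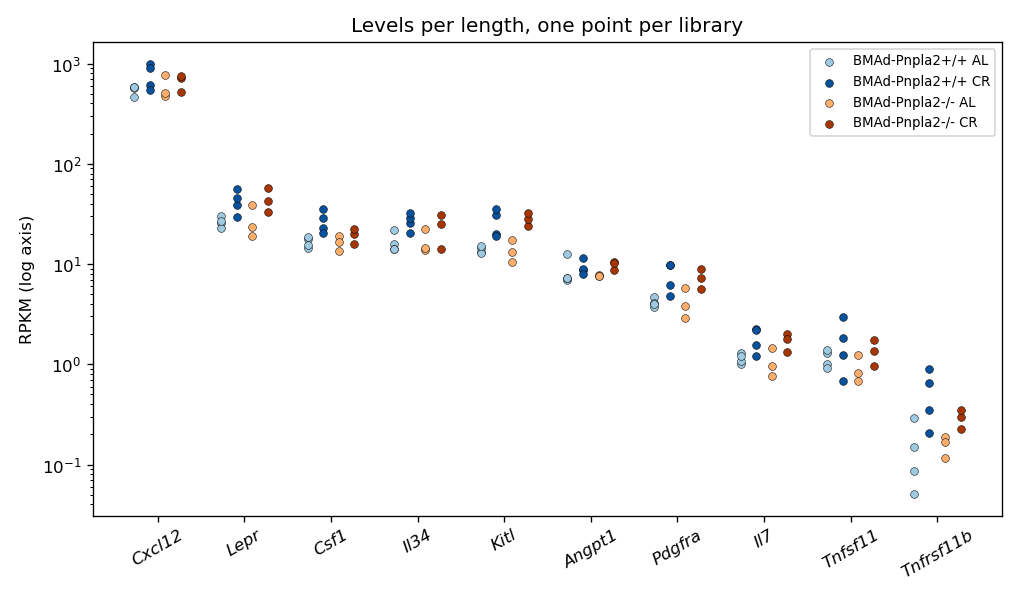
RPKM of the 10 niche factor genes on a log axis, with one point per library and colours for the 4 groups. Cxcl12 lies above all others in every library and Tnfrsf11b is lowest by group mean.

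CR compared with AL in BMAd-Pnpla2+/+ marrow asked how these genes moved under restriction where BMAds kept Pnpla2. In the paper, CR mice were moved from a control diet to a separate CR diet given each evening. The amount of food, the diet and the meal time therefore cannot be told apart. All 10 had a positive log2 fold change, and 4 rose with an adjusted p under 0.05, namely Kitl, Csf1, Tnfrsf11b and Pdgfra. Of all 17671 genes tested, 26.0% passed in either direction and 15.1% rose. The median log2 fold change was 0.69 over the 10 genes and 0.00 over all genes. With a log2 fold change over 1 required as well, 1 of the 10 (Tnfrsf11b) rose, against 7.33% of all genes. The CR and AL libraries did not overlap, with CR higher, for 3 of the 10 genes (Kitl, Csf1 and Pdgfra), against 12.4% of all genes. In a bulk sample, more cells of a type and more RNA per cell cannot be told apart.

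The number of calls moved with the CR libraries that were kept. One or the other of BMAd-Pnpla2+/+ CR libraries 2 and 3 was highest of the CR libraries for 9 of the 10 genes, and library 4 was lowest for all 10. The pair stood apart, with a median deviation from the mean over all libraries of 0.70 and 0.68 on the log2 scale, against 0.20 in library 1 and -0.15 in library 4. Leaving both out, a step chosen after the data were seen and which leaves 2 CR libraries, no member passed (edgeR), 2 were at an unadjusted p under 0.05 (Kitl with a log2 fold change of 0.48 and Csf1 with 0.39), and all genes called fell from 4602 to 438. In that fit the loss of this pair and the smaller CR group cannot be told apart. Left out singly, library 2 left 3 calls, with 2694 called of all 17568 genes tested. Library 3 left 2 (Kitl and Csf1, with 2228 of 17536 genes). Leaving out library 4, the lowest CR library, gave 8 (with 6029 of 17618 genes). Leaving out BMAd-Pnpla2-/- AL library 2 gave 7 (with 4530 of 18207 genes). On all 14 libraries DESeq2 called 7 (with 5603 of 17671 genes).

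**Figure D2:**
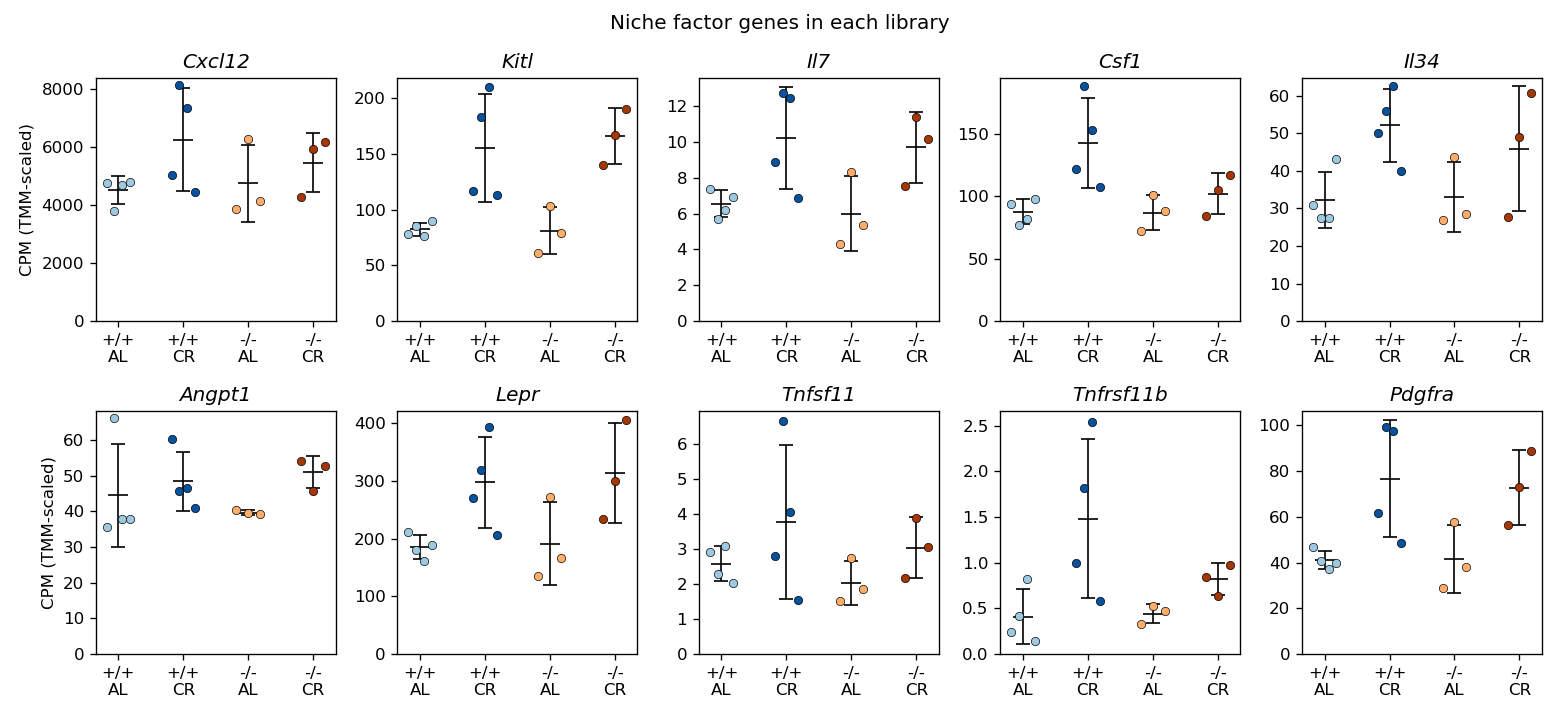
CPM of each niche factor gene per library, with the mean and SD of each group as black bars, for BMAd-Pnpla2+/+ and BMAd-Pnpla2-/- mice under AL and CR. Kitl, Csf1 and Pdgfra show no overlap between AL and CR in +/+ mice. The upper pair of +/+ CR points stands above the other +/+ CR points for Cxcl12, Kitl and Pdgfra.

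Among the factors that hold and feed blood progenitors, Kitl (chr10:100015630-100100416, plus strand, mm10) rose in both genotypes, although the call in BMAd-Pnpla2-/- mice was lost when some single libraries were left out. Its 4 BMAd-Pnpla2+/+ AL libraries held 78.5, 85.4, 76.5 and 89.5 CPM and the CR libraries 117, 183, 210 and 113. Every CR library lay above every AL library, and the log2 fold change was 0.92 ± 0.20 (SE, adjusted p = 0.00861). In BMAd-Pnpla2-/- mice Kitl went from 61.6, 104 and 78.7 CPM under AL to 140, 167 and 191 under CR, again without overlap (log2 fold change 1.03 ± 0.24, adjusted p = 0.0186). This second call was lost without AL library 1, AL library 3, CR library 2 or CR library 3 in turn (adjusted p = 0.0906, 0.0754, 0.0508 and 0.0759). The log2 fold change stayed at 0.83 to 1.20 with any single library left out.

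Cxcl12 (chr6:117168535-117181367, plus strand) stood at 4747, 3788, 4689 and 4780 CPM in BMAd-Pnpla2+/+ AL and 5023, 8117, 7344 and 4456 in CR. The groups overlapped through CR library 4, and the log2 fold change of 0.47 ± 0.22 did not pass (adjusted p = 0.121). Its BMAd-Pnpla2-/- values were 3842, 6252 and 4130 CPM under AL and 4283, 5924 and 6151 under CR, with a log2 fold change of 0.20 ± 0.25 (adjusted p = 0.637). Angpt1 (chr15:42424723-42676977, minus strand), a ligand of the Tek receptor on vessels and stem cells, did not follow the others. It had 35.7, 66.2, 37.9 and 38.0 CPM in BMAd-Pnpla2+/+ AL and 60.4, 45.8, 46.6 and 41.0 in CR, so that AL library 2 was above every CR library (log2 fold change 0.12 ± 0.18, adjusted p = 0.623). Without AL library 2 its log2 fold change passed (0.38 ± 0.12, adjusted p = 0.0445), with 3065 called of all 17603 genes tested. Without CR library 1 its log2 fold change was -0.045. The BMAd-Pnpla2-/- CR libraries (54.3, 45.8 and 52.8 CPM) were all above the AL ones (40.3, 39.5 and 39.1), with a log2 fold change of 0.36 ± 0.21 that did not pass (adjusted p = 0.266).

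Il7 (chr3:7569994-7613760, minus strand), the B lymphoid factor, had 7.39, 5.70, 6.18 and 6.92 CPM in BMAd-Pnpla2+/+ AL and 8.86, 12.8, 12.5 and 6.86 in CR. Of the CR libraries, 3 of 4 were above all AL libraries, and the log2 fold change of 0.65 ± 0.23 fell just short of the threshold (adjusted p = 0.0560). Without Pnpla2 in BMAds it was 4.30, 8.32 and 5.39 CPM under AL and 7.54, 11.4 and 10.2 under CR (log2 fold change 0.69 ± 0.27, adjusted p = 0.109). Markers of pro-B and pre-B cells went the other way: 7 of 12 fell in each genotype and none rose, among them Rag1 and Igll1, needed for immunoglobulin rearrangement and the surrogate light chain. Over all 17671 genes, 1934 fell in BMAd-Pnpla2+/+ CR and 985 in BMAd-Pnpla2-/- CR. How Il7 and these markers are related was not tested.

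Csf1 (chr3:107741048-107760469, minus strand) had 94.2, 76.6, 82.1 and 97.5 CPM in BMAd-Pnpla2+/+ AL and 122, 189, 153 and 107 in CR, with no overlap and a log2 fold change of 0.70 ± 0.17 (adjusted p = 0.0116). Csf1 in BMAd-Pnpla2-/- mice stood at 72.1, 101 and 88.2 CPM under AL and 84.5, 105 and 117 under CR, which overlapped (log2 fold change 0.23 ± 0.20, adjusted p = 0.466). Il34 (chr8:110741829-110805924, minus strand) had 30.8, 27.4, 27.5 and 43.3 CPM in BMAd-Pnpla2+/+ AL and 50.03, 56.0, 62.7 and 39.8 in CR, where AL library 4 exceeded CR library 4 (log2 fold change 0.69 ± 0.24, adjusted p = 0.0509). Its BMAd-Pnpla2-/- values were 26.9, 43.8 and 28.6 CPM under AL and 27.8, 49.1 and 60.6 under CR (log2 fold change 0.47 ± 0.28, adjusted p = 0.288). The ratio of Il34 to Csf1 counts within a library ran from 0.297 to 0.518 over all libraries, with mean log2 ratios from -1.46 to -1.22 over the 4 groups. Differences between groups in mean log2 ratio were 0.02 to 0.22 (2-sided exact permutation tests over libraries, smallest adjusted p = 0.8 over 4 comparisons), and with these group sizes no adjusted p could fall under 0.05.

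Tnfrsf11b (chr15:54250619-54278484, minus strand), the RANKL decoy, had 0.241, 0.422, 0.824 and 0.142 CPM (3 to 16 counts) in BMAd-Pnpla2+/+ AL and 0.995, 1.82, 2.54 and 0.580 (11 to 57 counts) in CR. CR library 4 fell below AL library 3, and the log2 fold change of 1.87 ± 0.51 was the largest of the 10 (adjusted p = 0.0189). In BMAd-Pnpla2-/- mice all 3 CR libraries (0.844, 0.631 and 0.981 CPM) were above all AL libraries (0.326, 0.526 and 0.476), with a log2 fold change of 0.88 ± 0.61 (adjusted p = 0.367). Tnfsf11 (chr14:78277445-78308043, minus strand) had 2.90, 2.27, 3.09 and 2.04 CPM in BMAd-Pnpla2+/+ AL and 2.80, 6.65, 4.05 and 1.53 in CR. The CR libraries held both the highest and the lowest of these values (log2 fold change 0.55 ± 0.36, adjusted p = 0.271). Tnfsf11 in BMAd-Pnpla2-/- mice was 1.52, 2.74 and 1.85 CPM under AL and 2.16, 3.89 and 3.04 under CR (log2 fold change 0.57 ± 0.43, adjusted p = 0.413).

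The Tnfsf11 to Tnfrsf11b ratio of counts was 11, 5.12, 3.67 and 12.4 in BMAd-Pnpla2+/+ AL and 2.77, 3.62, 1.59 and 2.57 in CR, so every CR library was below every AL library. The mean log2 ratio fell by 1.49 (2-sided exact permutation p = 0.0286, the smallest that 4 against 4 can give, and 0.114 after adjustment over the 4 comparisons), which could not pass after adjustment with these group sizes. In BMAd-Pnpla2-/- mice the ratio was 4.38, 5.0 and 3.74 under AL and 2.52, 5.96 and 3.05 under CR (mean log2 difference -0.28, exact permutation p = 0.5, where 3 against 3 cannot go below 0.1). The BMAd-Pnpla2-/- and BMAd-Pnpla2+/+ libraries differed in mean log2 ratio by -0.71 under AL (exact permutation p = 0.286) and 0.50 under CR (exact permutation p = 0.4).

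**Figure D3:**
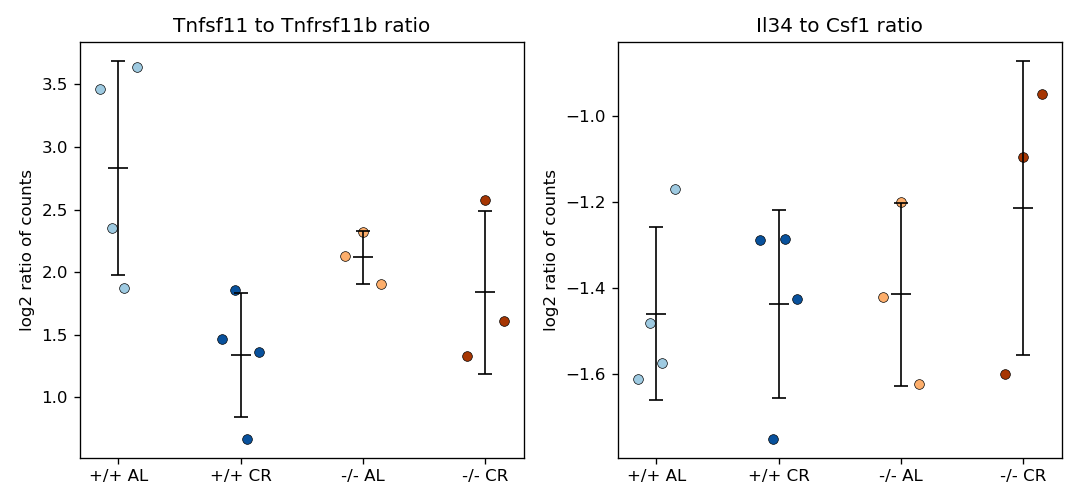
Log2 ratio of counts within each library for Tnfsf11 over Tnfrsf11b and for Il34 over Csf1, with the mean and SD of each group as black bars. The first ratio is lower in every +/+ CR library than in any +/+ AL library, and the second lies between -1.75 and -0.95 in all libraries.

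Of the receptors that mark stromal cells, Pdgfra rose and Lepr lay at the threshold. Pdgfra (chr5:75152292-75198215, plus strand), the receptor of mesenchymal progenitors for platelet-derived growth factors, had 46.8, 40.7, 37.1 and 39.7 CPM in BMAd-Pnpla2+/+ AL and 61.5, 99.2, 97.5 and 48.4 in CR. All CR libraries were above all AL libraries (log2 fold change 0.90 ± 0.25, adjusted p = 0.0214). Lepr (chr4:101717404-101815352, plus strand), the leptin receptor, had 212, 181, 161 and 189 CPM in AL and 271, 319, 395 and 207 in CR, where CR library 4 was below AL library 1 (log2 fold change 0.68 ± 0.24, adjusted p = 0.0501). In BMAd-Pnpla2-/- mice Pdgfra went from 28.9, 57.9 and 38.0 CPM to 56.2, 73.0 and 88.9 (log2 fold change 0.81 ± 0.29, adjusted p = 0.0834) and Lepr from 135, 272 and 167 to 235, 299 and 407 (0.71 ± 0.28, adjusted p = 0.105).

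In BMAd-Pnpla2-/- marrow as a whole, Kitl was the single gene of the 10 that rose under CR with an adjusted p under 0.05, and its log2 fold change of 1.03 was just over 1. Of all genes 11.6% passed in either direction, 6.04% rose, and 2.62% rose with a log2 fold change over 1. All 10 log2 fold changes were positive (0.20 to 1.03, median 0.63, against 0.05 over all genes). The split of all calls moved with the scaling, from 1067 higher and 985 lower with TMM to 1396 and 687 with total counts and 913 and 1267 with size factors by relative log expression. Kitl was still called with those size factors, DESeq2, no low-count filter or the compared groups alone. In each of these fits its log2 fold change was not over 1. The CR and AL libraries did not overlap, with CR higher, for 3 of the 10 (Kitl, Angpt1 and Tnfrsf11b), against 20.5% of all genes. The Kitl call was lost without any 1 of the 4 libraries named above. Leaving out AL library 2, the highest AL library for 9 of the 10 genes, gave 4 calls, with 1925 called of all 18207 genes tested.

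**Figure D4:**
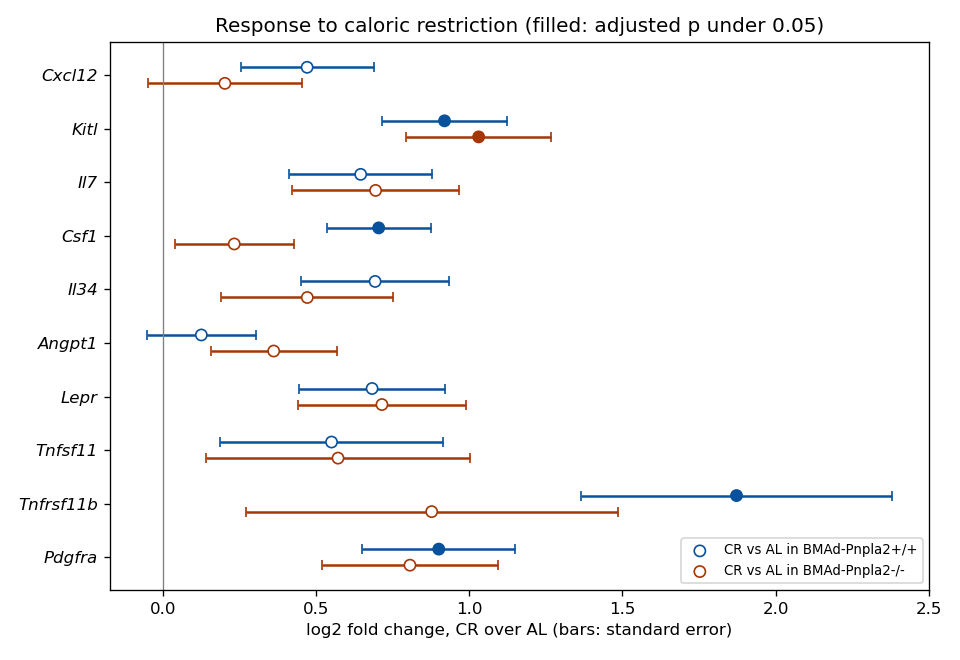
Log2 fold change of each niche factor gene under CR relative to AL in BMAd-Pnpla2+/+ (blue) and BMAd-Pnpla2-/- (brown) mice, with standard errors, filled where the adjusted p was under 0.05. All points lie right of 0, and Kitl is filled in both genotypes.

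Between genotypes, none of the 10 genes passed on either diet. Under AL, log2 fold changes of BMAd-Pnpla2-/- over BMAd-Pnpla2+/+ ran from -0.33 to 0.14, no gene of all tested passed with edgeR (0.0%), 3.96% had an unadjusted p under 0.05 (0 of the 10), and DESeq2 called 18 genes. Under CR they ran from -0.86 to 0.09, 0.0113% of all genes (2 genes) passed, and 23.2% had an unadjusted p under 0.05, against 1 of the 10. The count over all genes was 1608 with DESeq2, which called 0 of the 10, and 2112 without BMAd-Pnpla2+/+ CR library 4. The 1 gene of the 10 was Csf1, lower in BMAd-Pnpla2-/- CR by a log2 fold change of -0.48 ± 0.18 (edgeR adjusted p = 0.149), and it passed without BMAd-Pnpla2+/+ CR library 4 (adjusted p = 0.0417). The groups overlapped for all 10 genes on both diets, where 5.46% of all genes under AL and 16.7% under CR did not overlap in either direction.

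The genotype by diet interaction tested whether the CR response differed between genotypes. No gene passed with edgeR (0.0% of all genes), 10.4% of all genes and 0 of the 10 had an unadjusted p under 0.05, and DESeq2 called 58 genes. The interaction ran from -0.996 ± 0.80 (Tnfrsf11b, adjusted p = 0.656) to 0.24 (Angpt1), and that of Csf1 was -0.47 ± 0.26 (edgeR adjusted p = 0.537). A different CR response between genotypes was therefore not detected for any of the 10 genes.

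Of the 15 receptors and partner ligands of these factors, all tested, 6 rose in BMAd-Pnpla2+/+ CR and 1 in BMAd-Pnpla2-/- CR, and none fell. Of all genes, 15.1% rose in the first comparison and 6.04% in the second. Lep, the ligand of Lepr and an adipocyte hormone, went from 3.33 to 30.8 CPM in BMAd-Pnpla2+/+ mice (log2 fold change 3.20 ± 0.50, adjusted p = 0.00207) and from 1.17 to 19.3 CPM in BMAd-Pnpla2-/- mice (4.04 ± 0.64, adjusted p = 0.00737). Kit, the receptor of Kitl on blood progenitors and mast cells, rose in BMAd-Pnpla2+/+ CR by 0.93 ± 0.20 on the log2 scale (adjusted p = 0.00749). Tek and Tie1, the vessel receptors of the angiopoietin system, rose by 0.76 ± 0.24 and 0.72 ± 0.21 (adjusted p = 0.0351 and 0.0280), and Angpt2, the rival ligand of Angpt1 at Tek, by 0.92 ± 0.19 (adjusted p = 0.00628). Pdgfrb, the sister receptor of Pdgfra, rose by 0.67 ± 0.22 (adjusted p = 0.0438).

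The other 9 receptors and ligands did not pass. In BMAd-Pnpla2+/+ CR against AL, log2 fold changes were -0.34 ± 0.13 for Cxcr4, which binds Cxcl12 (adjusted p = 0.0640), 0.29 ± 0.20 for Csf1r (adjusted p = 0.290), 0.17 ± 0.20 for Il7r (adjusted p = 0.536) and 0.23 ± 0.22 for Il2rg, its partner chain (adjusted p = 0.459). Tnfrsf11a, the RANK receptor of Tnfsf11, had 0.79 ± 0.29 (adjusted p = 0.0605) and Ackr3, the scavenging receptor of Cxcl12, 0.85 ± 0.35 (adjusted p = 0.0876). Pdgfa, Pdgfb and Pdgfc, the growth factor ligands, had 0.36, -0.15 and 0.53. None of these 9 genes passed in BMAd-Pnpla2-/- mice either, with log2 fold changes from -0.26 (Pdgfb) to 0.99 (Ackr3).

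Of 30 further niche factors, 26 were tested, and in BMAd-Pnpla2+/+ CR 13 rose and 1 fell. In BMAd-Pnpla2-/- CR 1 rose and 1 fell. The shares of all genes that rose were 15.1% and 6.04%. The growth factor Fgf2 rose in both genotypes (log2 fold change 1.62 ± 0.29, adjusted p = 0.00365, and 1.28 ± 0.34, adjusted p = 0.0311), and Tgfb1 fell in both (-0.41 ± 0.11, adjusted p = 0.0168, and -0.68 ± 0.12, adjusted p = 0.00951). Its relatives Tgfb2 and Tgfb3 rose in BMAd-Pnpla2+/+ CR, by 1.87 ± 0.39 and 1.25 ± 0.25 (adjusted p = 0.00612 and 0.00544). The adhesion molecule Vcam1, the insulin-like growth factor Igf1 and the matrix protein Spp1 rose there by 0.70, 0.94 and 1.42. The Notch ligand Jag1, the growth factors Fgf7, Vegfa and Vegfc, and Bmp4 rose by 0.80, 0.67, 0.55, 0.74 and 1.02. The cytokines Lif and Thpo, at means of 0.499 and 0.354 CPM under AL, rose by 1.65 and 1.79. Unstranded counts were 82.2 to 93.2% of strand-specific ones for Pdgfa, Pdgfc, Tgfb3, Fgf2 and Vcam1 and 113% for Angpt2. None of the 15 or the 26 passed between genotypes or in the interaction.

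Markers of several cell types moved with the niche factor genes across libraries, and their part in the results was not tested. Some genes above are counted again here, as Lep is also an adipocyte marker, Tie1 an endothelial one, and Pdgfrb and Vcam1 stromal ones. Over all 17671 genes, 2668 rose and 1934 fell in BMAd-Pnpla2+/+ CR, and 1067 rose and 985 fell in BMAd-Pnpla2-/- CR. Of 20 marrow stromal markers, 12 rose in BMAd-Pnpla2+/+ CR and 2 in BMAd-Pnpla2-/- CR, with medians of 0.79 and 0.57 on the log2 scale, and their summed level ran from 3001 to 4095 CPM in BMAd-Pnpla2+/+ AL, 3991 to 7870 in BMAd-Pnpla2+/+ CR, 2548 to 4852 in BMAd-Pnpla2-/- AL and 3660 to 5332 in BMAd-Pnpla2-/- CR. All 10 adipocyte markers rose in both genotypes, with sums of 739 to 1926 and 2041 to 5114 CPM in BMAd-Pnpla2+/+ AL and CR, and 322 to 751 and 1313 to 2142 CPM in BMAd-Pnpla2-/- AL and CR. Of 10 endothelial markers, 7 rose in BMAd-Pnpla2+/+ CR and none in BMAd-Pnpla2-/- CR. Of the other lists in BMAd-Pnpla2+/+ CR, 4 of 10 tested osteoblast and osteocyte markers and 6 of 8 osteoclast markers rose, and 6 of 10 neutrophil markers fell. None of 10 erythroid markers passed, but BMAd-Pnpla2+/+ CR libraries 2 and 3 were lowest in them, at median log2 deviations of -1.31 and -1.64, and they were highest in stromal markers, at 1.01 and 0.72. Defining stromal, adipocyte and endothelial markers were detected in every group.

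Skeletal muscle markers summed to 7.34 to 16.3 CPM in BMAd-Pnpla2+/+ CR and reached 108 CPM in BMAd-Pnpla2-/- CR, with libraries 2 and 3 of that group and BMAd-Pnpla2+/+ AL library 2 above the rest. None of the 6 tested passed. Chondrocyte, Schwann cell and tendon markers gave 0 of 3, 1 of 8 and 3 of 5 calls in BMAd-Pnpla2+/+ CR, and 4 of 10 monocyte and macrophage markers passed there, 2 in each direction.

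**Figure D5:**
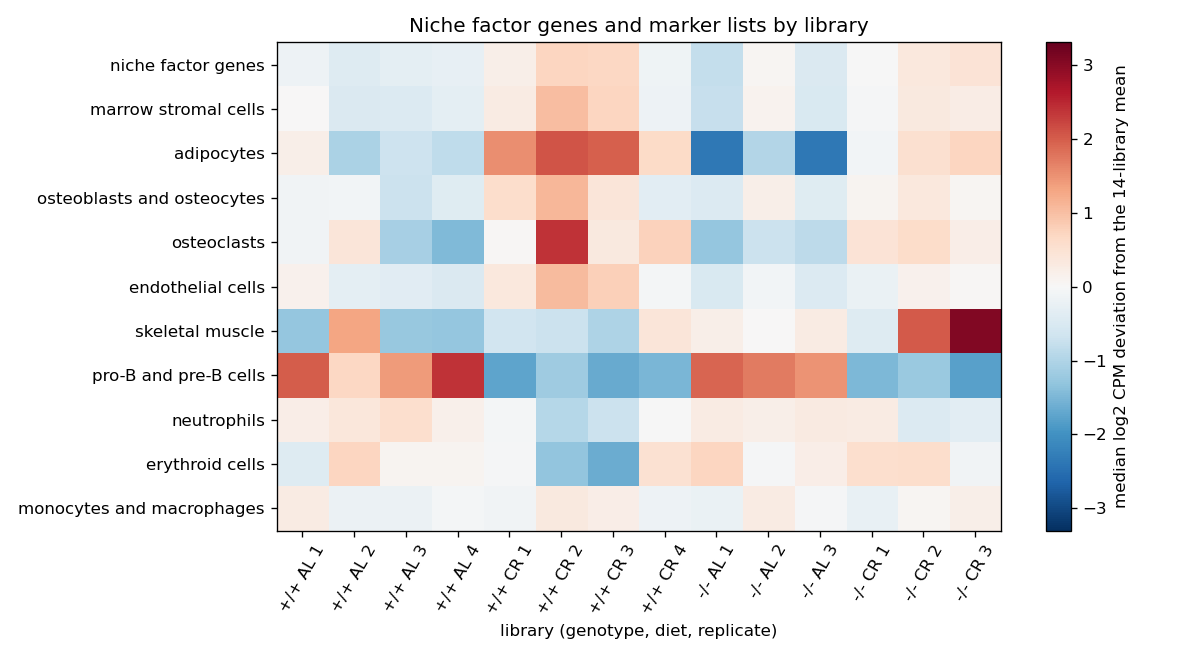
Median log2 CPM deviation from the mean of all 14 libraries for the niche factor genes and 10 marker lists, one column per library. The niche factor row is highest in +/+ CR 2 and 3 (0.70 and 0.68), where stromal, adipocyte and endothelial rows are also highest and the erythroid row is lowest.

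Among themselves the genes moved together from library to library, with Angpt1 apart. As a description over 14 libraries that share groups and scaling, the median Pearson r of a gene with the other 9 was 0.69 to 0.87 for 9 of the 10 genes and 0.22 for Angpt1. After group means were removed it was 0.41 (Tnfrsf11b) to 0.90 (Pdgfra) for those 9 and -0.11 for Angpt1. The pair with the highest r was Lepr and Pdgfra, at 0.97. Over all libraries among the genes most alike were Fbln5, Lmo7 and Emp2 for Cxcl12 (r = 0.98, 0.97 and 0.97), Acvr2a, Tbc1d19 and Nf1 for Kitl (0.99, 0.98 and 0.98), and Emp1 and Srpx for Il7 (0.98 and 0.97). For Csf1 they were Mxd4, Speg and Ret (0.98, 0.97 and 0.97), for Il34 Prrg3, Ebf2 and Spry1 (0.95, 0.94 and 0.94), and for Angpt1 Dtna, Pttg1ip and Itgb1 (0.90, 0.87 and 0.86). For Lepr they were Igf1, Zfp275 and Mrc1 (each 0.98), for Pdgfra Apbb2, Ppfibp1 and Zfp275 (0.99, 0.98 and 0.98), for Tnfsf11 Adamts1, Ndn and Sdc1 (each 0.94), and for Tnfrsf11b Fos, Vsig10 and Gm15417 (0.93, 0.92 and 0.90).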

How the data were processed

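Total RNA of distal tibial marrow plugs was sequenced as 100-base read pairs. The deposited files hold raw counts per gene and library that the authors made with STAR on mm10 (version not given in the sources used here; FastQC 0.11.9 before alignment), in unstranded and strand-specific columns, and 1 matrix of counts that takes strand-specific values for 11 libraries and unstranded ones for 3. Unstranded counts of all 14 libraries were used, read by gene symbol and identifier (GENCODE M21 gives the same identifiers). The exonic length used for RPKM came from that annotation.

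Genes were filtered with filterByExpr, scaled by TMM and fitted in 1 edgeR 4.0.16 quasi-likelihood model of the 4 groups (robust, R 4.3.3). P-values were adjusted by Benjamini-Hochberg over all 17671 genes and called under 0.05. Standard errors are the absolute log2 fold change over the square root of F. Log2 CPM used a prior count of 2. Ratios within a library used a pseudocount of 0.5 and 2-sided exact permutation tests over libraries. DESeq2 1.42.0 was an alternative. The fit was run on simulated counts with large known changes, a fixed spread and no shifts shared by whole libraries. That run does not bear on the smaller changes reported here.

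The genes and all lists were chosen with earlier results of these data known. Named genes were the 10 genes with Pnpla2 first, every tested receptor or partner ligand, further niche factors called in any comparison, and for each of the 10 the 3 genes (mean of at least 50 counts) with the highest r, of which 1 is not reported here. The labels do not state whether libraries shared mice or mice shared litters, so p-values measure the spread between libraries of pooled mice. Each library also has a sample number, and some are consecutive between an AL and a CR library of the same genotype. The paper names littermate controls for other experiments on these mice. The replicate numbers do not follow the order of the sample numbers. A grouping of libraries by sample number, litter or cohort was therefore not tested. No library pair had identical counts.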

Additional observations from a re-analysis of the deposited data

Results flagged for a closer look

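Of 24 checks in groups of 4 libraries (10 genes and 2 ratios), 2 found a library that stood apart from the other 3, where chance gives about 1 in 20. Both concerned BMAd-Pnpla2+/+ AL library 2: Cxcl12 was lowest there at 3788 CPM, and Angpt1 was highest there at 66.2 CPM. Skeletal muscle markers were higher in that library than in the other BMAd-Pnpla2+/+ AL libraries, with a median log2 deviation of 1.30, and their part in these values was not tested.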

How the results depend on the processing

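In BMAd-Pnpla2+/+ mice, CR against AL called 4 of the 10 genes, and 7 with DESeq2, 1 with a log2 fold change over 1 required, 0 without BMAd-Pnpla2+/+ CR libraries 2 and 3 (chosen after seeing the data) and 2 to 8 with single libraries left out. Calls over all genes were 4602, and 5603 with DESeq2, 2742 with the compared groups alone, 438 without both libraries, 1639 with the fold required and 2228 to 6029 with single libraries left out. In BMAd-Pnpla2-/- mice, 1 of the 10 was called, with 2 without both libraries and 0 to 4 leaving out single ones, and calls over all genes were 2052, and 3147 with DESeq2, 3898 in the deposited matrix that mixes count types, 624 with the fold required and 243 to 2435 leaving out single libraries. Between genotypes under AL, DESeq2 called 18 genes where edgeR called 0. Under CR edgeR called 2, against 1608 with DESeq2, 8 with total counts, 111 with no low-count filter, 2451 in the deposited matrix, 0 with the compared groups alone, 0 without both libraries, 1 with the fold required and 0 to 2112 leaving out single libraries, while 0 to 1 of the 10 genes were called. For the interaction, DESeq2 called 58 and the deposited matrix gave 678. The causes were not tested.

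The Tnfsf11 to Tnfrsf11b difference in BMAd-Pnpla2+/+ mice was -1.42 without both libraries (exact permutation p = 0.133, the smallest possible with the libraries left). It was -1.81 to -1.23 leaving out single ones. The Il34 to Csf1 difference ran from -0.029 to 0.13 for CR in BMAd-Pnpla2+/+ mice and from -0.063 to 0.15 between genotypes under AL. Angpt1 under CR in BMAd-Pnpla2+/+ mice ran from -0.045 to 0.38 leaving out single libraries. Without both libraries, Tnfsf11 in that comparison was -0.24, and Tnfrsf11b between genotypes under CR was 0.048.

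No pairing by replicate number was seen. Same-numbered libraries of different groups correlated at -0.38 to 0.33 in their deviations, and other-numbered ones at -0.44 to 0.36. With so few libraries per group, these values cannot exclude a pairing. With the replicate number as a block, 4 and 1 of the 10 genes were called under CR in the 2 genotypes. The Tnfsf11 to Tnfrsf11b difference of -1.49 in BMAd-Pnpla2+/+ mice had an exact permutation p of 0.125, the smallest that this blocked test can give.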
